A study of Mus musculus with 2 samples.

Results

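The 32 genes described here encode the machinery of fast and slow inhibition in the nervous system: 16 subunits of the GABA-A receptor (counting the 3 rho subunits), 2 subunits of the GABA-B receptor, 5 subunits of the glycine receptor, gephyrin, the chloride cotransporters Slc12a5 and Slc12a2, the GABA-synthesising enzymes Gad1 and Gad2, and 4 transporters. They were taken by name from a list and matched by gene identifier, without version, in the gene and transcript tables of both samples. All 32 were found among the 43346 genes of each table. The list does not hold every subunit or transporter of these families, so a share given below is a share of the listed genes only.

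The tissue was hindbrain, the region that forms the cerebellum, pons and medulla, from B6NCrl mouse embryos at 14.5 days of gestation. Total RNA was sequenced in 2 libraries, replicate 2 and replicate 1, each from 1 hindbrain of 1 pup per the labels. No allele or treatment is named for either embryo, and both libraries form 1 group. The pups came from 2 collection dates, which cannot be told apart from replicate, the labels give both the same donor identifier, and the sex entry reads pooled although each sample is called a single hindbrain.

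GABA and glycine open receptor channels that pass chloride, and each channel is a ring of subunits drawn from a large gene family. Whether an open channel quiets or excites the cell depends on the chloride gradient, which Slc12a2 (NKCC1) loads and Slc12a5 (KCC2) extrudes. In the developing brainstem and spinal cord, GABA and glycine are made by neighbouring or the same interneurons, and both are packed into vesicles by the same carrier, Slc32a1.

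The libraries held 33510896 expected counts in replicate 2 and 34929425 in replicate 1, which are reads the authors' software attributed to genes, other features and spike-ins. A level is a TPM value, the authors' length-corrected relative transcript abundance, printed for each library or as mean ± SD (n = 2), and a gene counted as detected at 1 TPM or more in both libraries. A gene is called higher or lower where its counts differed past an adjusted p of 0.05 in the exact binomial test described below. Over all 17664 genes tested, 15.7% were called higher in replicate 2 and 18.7% lower, which is the background for the marker counts that follow. Of the tissue markers, 8 of 8 anterior Hox genes of the hindbrain were detected, against 1 of 8 forebrain transcription factors and 0 of 5 posterior Hox genes. The anterior Hox genes summed to 355 TPM in replicate 2 and 383 TPM in replicate 1, with 7 of 8 called lower in replicate 2. Of the forebrain factors, Six3, with 19 counts in replicate 2 and 1 in replicate 1, and Lhx2, at 15.1 TPM in replicate 2 and 10.4 TPM in replicate 1, were called higher, and Lhx6 was called lower. Choroid plexus markers summed to 1180 TPM in replicate 2 and 1949 TPM in replicate 1. Of these 7 markers, 5 were called lower in replicate 2, 1 was called higher and 1 was not called. Meningeal markers summed to 629 and 753 TPM in replicate 2 and replicate 1, with 6 of 8 called lower in replicate 2, 1 higher and 1 not called. Oligodendrocyte-lineage markers summed to 175 TPM in replicate 2 and 144 TPM in replicate 1, with 2 of 4 called higher. Erythroid markers summed to 14209 TPM in replicate 2 and 12432 TPM in replicate 1, with 6 of 9 called higher and 2 lower. The 2 lower ones were embryonic globins, Hbb-y at 137 TPM in replicate 2 and 534 TPM in replicate 1, and Hba-x at 30.7 and 75.5 TPM in replicate 2 and replicate 1. Pan-neuronal markers summed to 4801 TPM in replicate 2 and 4439 TPM in replicate 1, with 1 of 8 called higher, 1 lower and 6 not called. The libraries thus differ in regional, choroid plexus, meningeal and blood markers as well as in the genes described below, and the part of these markers in the differences given below was not tested.

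The receptor channels of both transmitters share a gene structure. In the GENCODE M21 models on GRCm38, all 21 listed GABA-A, rho and glycine receptor subunit genes held a coding exon of 68 bases followed by a longer exon and then by an exon of 83 bases. The longer exon measured 221 bases in 12 genes, all of them alpha, beta, gamma, delta, epsilon or theta subunits. It measured 224 bases in 7 genes, the 3 rho subunits and the 4 glycine alpha subunits, 218 bases in Gabrp and 230 bases in Glrb. The exon after the 83-base exon was 144 bases long in the 5 alpha genes and 135 to 141 bases long in the other 16. The 83-base exon carries the Cys-loop, the disulphide-closed loop that gives this receptor family its name. In all 21 genes a cysteine codon began at base 20 of that exon and another at base 62, with 13 codons between them. The 7 exons below are shown because they span the family, from Gabra5 and Gabrb2 to the rho subunit Gabrr2 and both kinds of glycine subunit. Capitals mark the 26 bases identical in all 7.
Gabra5 (chr7:57452945-57453027, minus strand): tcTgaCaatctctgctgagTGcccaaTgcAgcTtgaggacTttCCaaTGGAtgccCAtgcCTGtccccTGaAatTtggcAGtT
Gabrb2 (chr11:42529412-42529494, plus strand): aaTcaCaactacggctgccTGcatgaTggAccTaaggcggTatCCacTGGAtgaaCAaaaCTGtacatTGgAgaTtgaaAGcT
Gabrg1 (chr5:70780650-70780732, minus strand): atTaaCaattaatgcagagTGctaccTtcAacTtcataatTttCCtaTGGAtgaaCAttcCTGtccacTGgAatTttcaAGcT
Gabrq (chrX:72835093-72835175, plus strand): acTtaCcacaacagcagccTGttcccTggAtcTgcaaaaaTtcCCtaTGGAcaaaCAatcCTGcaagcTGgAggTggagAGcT
Gabrr2 (chr4:33082279-33082361, plus strand): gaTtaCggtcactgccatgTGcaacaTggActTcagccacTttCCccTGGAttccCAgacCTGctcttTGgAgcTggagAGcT
Glra2 (chrX:165257106-165257188, minus strand): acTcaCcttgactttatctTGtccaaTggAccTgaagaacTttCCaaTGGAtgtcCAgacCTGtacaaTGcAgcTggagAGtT
Glrb (chr3:80861703-80861785, minus strand): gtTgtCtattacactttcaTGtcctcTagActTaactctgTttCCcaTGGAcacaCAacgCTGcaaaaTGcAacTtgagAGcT
Over all 21 genes 22 of the 83 positions were identical. Pairwise identity of this exon had a median of 57.8% among the 120 pairs of GABA-gated subunits, with a range of 44.6% to 80.7%. Among the 10 pairs of glycine subunits the median was 74.7%, with a range of 56.6% to 81.9%, and among the 80 mixed pairs it was 56.6%, with a range of 45.8% to 66.3%. The rho genes shared the 224-base exon length with the glycine alpha genes and not with the other GABA-A genes.

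Of the 32 genes, 24 were detected in both replicates and the other 8 were below 1 TPM in both. At or above 10 TPM in both stood 15 genes. The median level of the 32 was 10.2 TPM, beside 5.63 TPM over 21474 protein-coding genes, and 75.0% of the 32 against 62.5% of the protein-coding genes were detected. The most abundant were Gabbr1, Gad1, Slc6a11, Gphn, Gabra5 and Glrb, which averaged between 41.2 and 91.8 TPM. In the order of mean levels, 14 of the 31 neighbouring pairs kept their order with no overlap between the replicates of the pair, and 17 did not. Neighbours whose replicates overlapped included Gabbr1 and Gad1, Gphn and Gabra5, Glrb and Slc12a5, and the run from Gabrb1 through Gabrg1, Gabra4, Gabbr2 and Slc6a5 to Glra2. In bulk tissue, fewer cells of a type and less RNA per cell cannot be told apart.

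**Figure D1:**
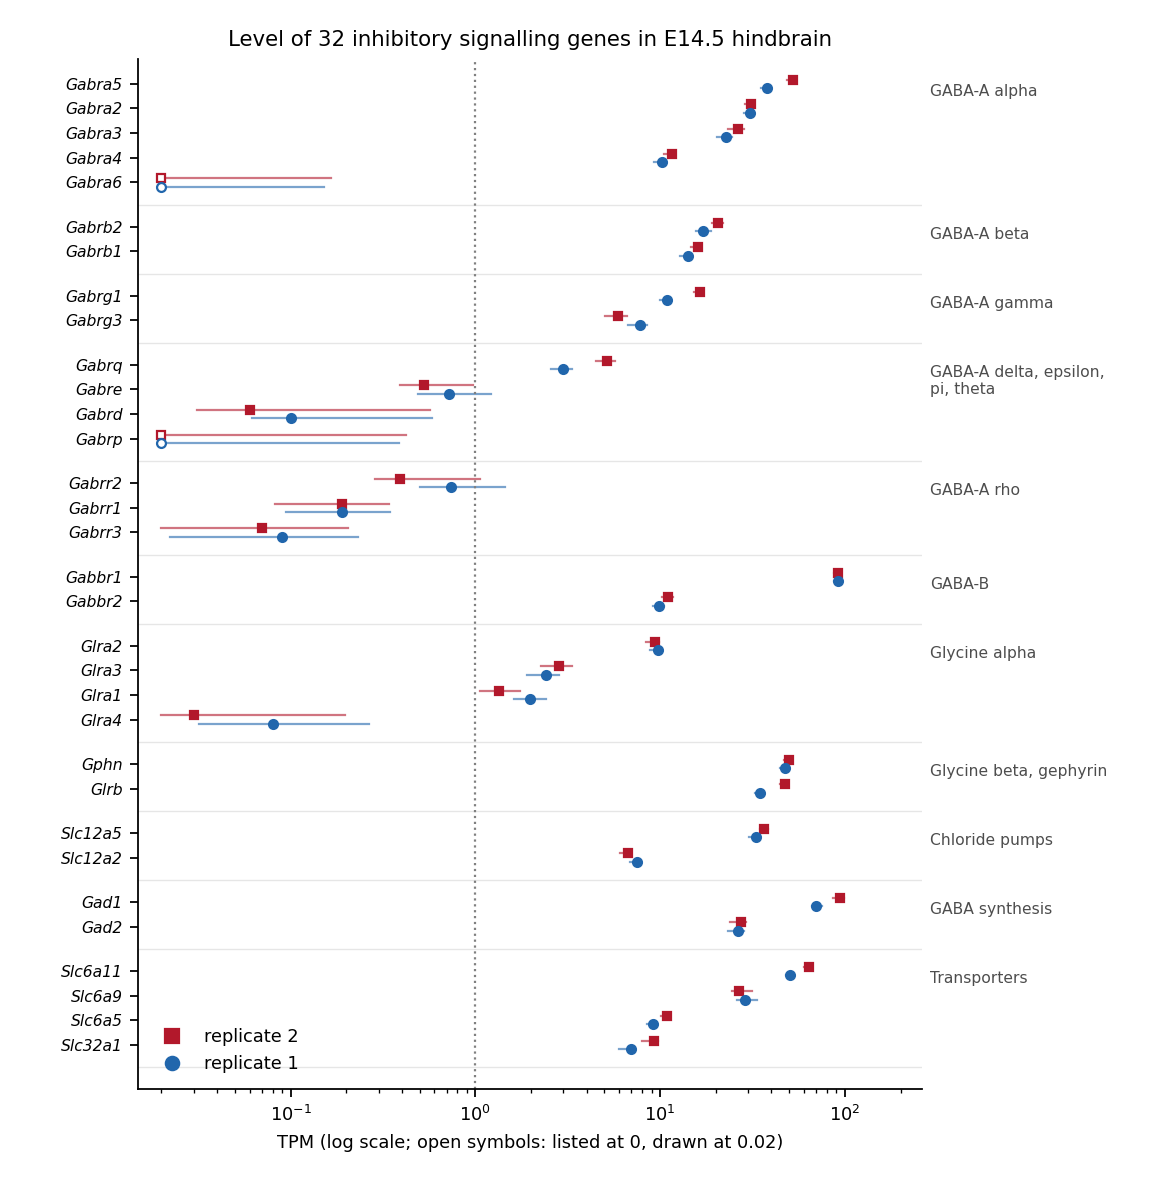
Level in TPM (log axis) of the 32 genes by role in replicate 2 (red squares) and replicate 1 (blue circles); lines are the deposited credibility intervals of each library and the dotted line is 1 TPM. All 4 of the detected alpha subunits, both beta subunits, both GABA-B subunits and all transporters lie to the right of the line, and the rho subunits to its left.

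The replicates were compared gene by gene with an exact two-sided binomial test on the expected counts, relative to the gene totals of the libraries, and p-values were adjusted by the Benjamini-Hochberg method over all 17664 genes tested, with a threshold of 0.05. It sets the difference between the libraries against counting noise alone and does not compare conditions. Of all genes tested, 34.4% were called, 15.7% higher in replicate 2 and 18.7% lower. Of the 26 members that reached the minimum mean count of 10, 14 were called, 11 higher in replicate 2 and 3 lower. The median log2 count ratio, replicate 2 over replicate 1, was 0.10 over the 26 members and -0.03 over all genes tested. The test calls small differences where reads are many: where the mean count was 100 or more, 41.5% of 13223 genes were called, and 13 of 23 members.

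The 11 genes higher in replicate 2 were Gabra5, Gabra3, Gabrb2, Gabrg1, Gabrq, Glrb, Slc12a5, Gad1, Slc6a11, Slc6a5 and Slc32a1, by 1.11-fold (Gabra3) to 1.47-fold (Gabrq). They were called higher with all 4 scalings tried (gene totals, TMM, DESeq2 size factors and spike-in totals). The 3 lower genes were Slc6a9, Slc12a2 and Glra1. They were lower with gene totals, TMM and DESeq2 size factors and not called with spike-in totals, which raised every log2 ratio by 0.12 and gave 16 members called, all 16 higher. With spike-in totals 80.6% of the calls over all genes were in the higher direction, against 45.7% with gene totals. Of the called members, 1 differed by at least 1.5-fold, Glra1, beside 1.52% of all tested genes that were called higher and 4.44% that were called lower by that much. Gabrr2, with 11 counts in replicate 2 and 18 counts in replicate 1, had a count ratio of 0.635 and was not called. In 10 called members, all higher, the deposited credibility intervals of both libraries also lay apart, beside 12.3% of all tested genes that were called higher with separate intervals, and the intervals of Gabrb1 and Gabrg3 lay apart without a call.

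**Figure D2:**
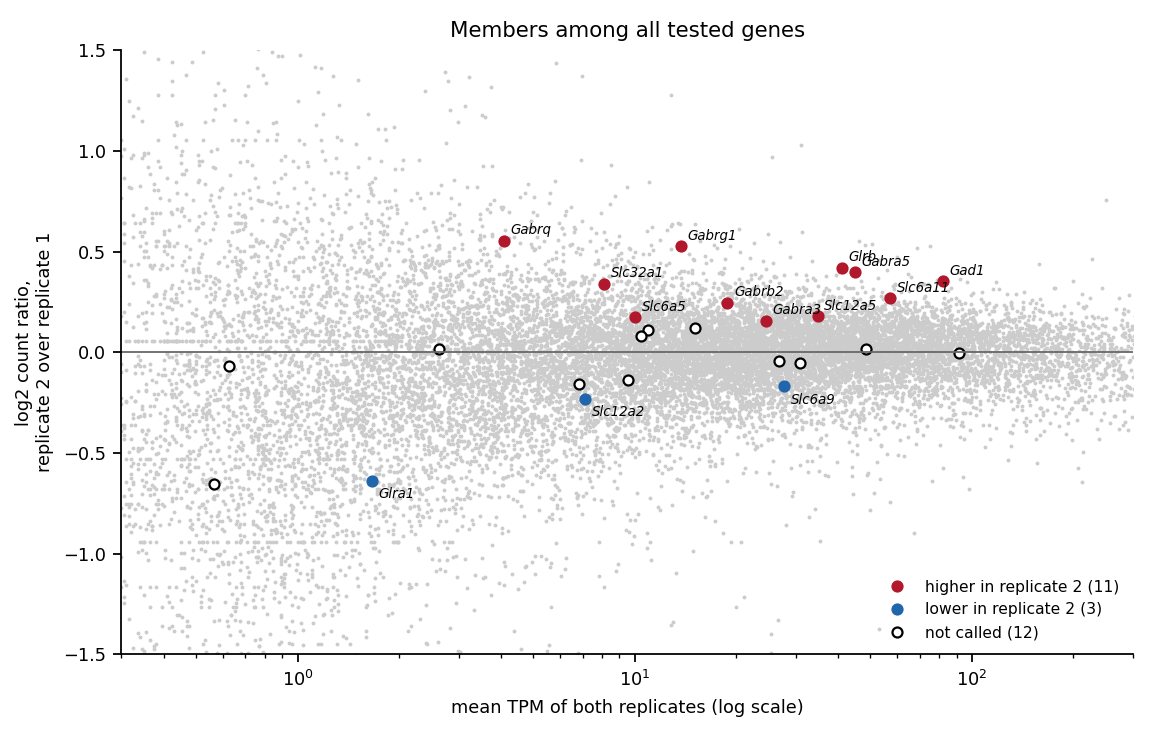
Log2 count ratio, replicate 2 over replicate 1, scaled by gene totals, against mean TPM (log axis) for all tested genes (grey) and the 26 tested members (red higher, blue lower, open not called). The 11 higher members lie between log2 ratios of 0.15 and 0.55; spike-in scaling moves all points up by 0.12 and then none of the 3 lower members is called.

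The alpha subunits form the GABA binding site together with beta subunits and set where and how sensitively a receptor acts. Gabra5, whose receptors are often extrasynaptic in the adult (chr7:57407672-57510059, minus strand), was at 52.3 TPM in replicate 2 and 37.7 TPM in replicate 1. Gabra2 (chr5:70957597-71095849, minus strand), an alpha subunit of early synapses, was at 31.2 and 30.8 TPM in replicate 2 and replicate 1. Gabra3 (chrX:72432681-72656848, minus strand), prominent in brainstem and monoaminergic nuclei, was at 26.4 TPM in replicate 2 and 22.6 TPM in replicate 1. Gabra5 was the highest alpha gene in each replicate and Gabra2 the next. The Gabra5 counts were 1.32-fold higher in replicate 2 (adjusted p = 5.19e-19, exact binomial test), those of Gabra3 1.11-fold higher (adjusted p = 0.0198, exact binomial test), and those of Gabra2 were not called, with a ratio of 0.962.

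Gabra4 (chr5:71569749-71658308, minus strand), an extrasynaptic subunit of adult thalamus and forebrain, was at 11.6 TPM in replicate 2 and 10.2 TPM in replicate 1. It was the lowest of the 4 detected alpha genes in both. Gabra6, a subunit of mature cerebellar granule cells (chr11:42306437-42321072, minus strand), had 0 counts in both libraries. At 3 counts its level would be 0.0748 TPM in replicate 2 and 0.0683 TPM in replicate 1, a floor for counting error only. Its deposited credibility intervals reached 0.165 TPM in replicate 2 and 0.151 TPM in replicate 1. As a share of the summed TPM of the 5 listed alpha genes, Gabra5 held 40.1% ± 4.11, Gabra2 28.0% ± 3.32, Gabra3 22.0% ± 0.423 and Gabra4 9.83% ± 0.369 (SD, n = 2).

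Beta subunits are needed for the receptor to reach the cell surface. Gabrb2 (chr11:42419757-42629028, plus strand) was at 20.5 TPM in replicate 2 and 17.1 TPM in replicate 1, and Gabrb1 (chr5:71658113-72149037, plus strand) at 16.1 and 14.1 TPM in replicate 2 and replicate 1. Gabrb2 lay above Gabrb1 in each library, with a ratio of 1.24 ± 0.0432 (SD, n = 2). The Gabrb2 counts were 1.18-fold higher in replicate 2 (adjusted p = 8.69e-05, exact binomial test) and those of Gabrb1 were not called. The only Gabrb1 transcript in the tables was 3089 nt long, against 13737 nt for the same transcript in GENCODE M21, so reads from the added part are not in its level.

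Gamma subunits anchor receptors at synapses and shape the response to benzodiazepines. Gabrg1 (chr5:70751047-70842617, minus strand), a gamma subunit also known from glia, was at 16.5 TPM in replicate 2 and 10.9 TPM in replicate 1. Its counts were 1.44-fold higher in replicate 2 (adjusted p = 1.73e-18, exact binomial test). Gabrg3 (chr7:56716465-57387188, minus strand), a rarer gamma subunit, was at 5.90 TPM in replicate 2 and 7.77 TPM in replicate 1. Its TPM intervals lay apart with replicate 2 lower, but its counts, 385 in replicate 2 and 446 in replicate 1, were not called. The effective length that the authors' estimate gave the gene was 3340 nt in replicate 2 and 2683 nt in replicate 1.

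The remaining GABA-A subunits were low. Gabrq, the theta subunit known from monoaminergic nuclei (chrX:72825178-72842602, plus strand), was detected at 5.18 TPM in replicate 2 and 2.98 TPM in replicate 1, and its counts were 1.47-fold higher in replicate 2 (adjusted p = 6.23e-06, exact binomial test). Gabre, the epsilon subunit found in the locus coeruleus and hypothalamus, was at 0.530 and 0.720 TPM in replicate 2 and replicate 1. Gabrd, the delta subunit of extrasynaptic receptors on adult granule cells, had 2 counts in replicate 2 and 4 counts in replicate 1. Gabrp, the pi subunit known mainly from tissues outside the brain, had 0 counts in both libraries. The rho subunits, best known from the retina, were all below the limit: Gabrr2 was at 0.390 and 0.740 TPM in replicate 2 and replicate 1, Gabrr1 at 0.190 TPM in both, and Gabrr3 had 2 counts in replicate 2 and 3 counts in replicate 1. Of the 7 genes of these classes, theta alone passed 1 TPM.

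Many of these genes lie side by side. Gabrg1, Gabra2, Gabra4 and Gabrb1 share a stretch of chr5 (70751047 to 72149037), and 4 of 4 were detected, with 75.4 TPM in sum in replicate 2 and 66.0 TPM in replicate 1. Gabrg3 and Gabra5 on chr7 summed to 58.2 TPM in replicate 2 and 45.5 TPM in replicate 1, and both were detected. On chrX, Gabra3 and Gabrq were detected while Gabre, in the same cluster, was below the limit. On chr11 Gabrb2 was at 18.8 ± 2.42 TPM (SD, n = 2), while its neighbour Gabra6 had 0 counts. Gabrr2 and Gabrr1, adjacent on chr4, summed to 0.580 TPM in replicate 2 and 0.930 TPM in replicate 1. All listed neighbours were detected on chr5 and chr7, and only some on chr11 and chrX.

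The GABA-B receptor is a G-protein-coupled pair: Gabbr1 binds GABA and Gabbr2 carries the complex to the surface and couples to the G protein. Gabbr1 (chr17:37045966-37075067, plus strand) had the highest mean of the 32 genes, 91.7 TPM in replicate 2 and 91.8 TPM in replicate 1. Gabbr2 (chr4:46662305-46991873, minus strand) was at 11.0 TPM in replicate 2 and 9.86 TPM in replicate 1. The Gabbr1 level was 8.84 ± 0.671 times that of Gabbr2 (SD, n = 2), and neither gene was called between replicates with gene totals.

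Gabbr1 is transcribed from more than 1 start. The transcript Gabbr1-203 begins 4665 bases downstream of Gabbr1-201. It opens with 145 coding bases that Gabbr1-201 lacks, in place of 493 coding bases in 4 exons of Gabbr1-201. Gabbr1-203 was at 46.8 TPM in replicate 2 and 45.2 TPM in replicate 1, and Gabbr1-201 at 27.7 and 25.7 TPM in replicate 2 and replicate 1. Gabbr1-203 exceeded Gabbr1-201 by 1.72 ± 0.0502 times (SD, n = 2), and their intervals did not overlap in either library. The coding starts that separate them are shown, with the start codon in capitals.
Gabbr1-203 (chr17:37050854-37050998, plus strand): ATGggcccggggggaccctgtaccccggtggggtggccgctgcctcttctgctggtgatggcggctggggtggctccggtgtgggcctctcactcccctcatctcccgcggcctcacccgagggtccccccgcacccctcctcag
Gabbr1-201 (chr17:37046695-37046776, plus strand): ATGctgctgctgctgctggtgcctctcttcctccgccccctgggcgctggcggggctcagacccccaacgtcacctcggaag
Another coding transcript, Gabbr1-202, held 12.1% of the gene in replicate 2 and 13.9% in replicate 1.

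Glycine receptors are built from alpha subunits, which bind glycine, and the beta subunit Glrb, which ties the receptor to gephyrin. Glra2 (chrX:165129017-165327393, minus strand), the alpha subunit of embryonic receptors, was at 9.34 TPM in replicate 2 and 9.78 TPM in replicate 1. Glra3 was at 2.85 TPM in replicate 2 and 2.40 TPM in replicate 1. Glra1, the alpha subunit of mature brainstem and spinal synapses (chr11:55514238-55608198, minus strand), was at 1.34 TPM in replicate 2 and 1.98 TPM in replicate 1. Glra2 was the highest glycine alpha gene in each library and held 68.8% ± 0.141 of their summed TPM (SD, n = 2), against 18.9% ± 2.94 for Glra3 and 11.9% ± 2.84 for Glra1. The ratio of Glra2 to Glra1 was 6.97 in replicate 2 and 4.94 in replicate 1. Glra4 had 1 count in replicate 2 and 3 counts in replicate 1, at or below the level of 3 counts.

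The Glra1 counts, 60 in replicate 2 and 97 in replicate 1, gave a ratio of 0.643 (adjusted p = 0.0274, exact binomial test), and with spike-in totals the gene was not called (adjusted p = 0.0670, exact binomial test). Glra2 and Glra3 were not called. Glra3-201 was 1867 nt long in the tables, against 6508 nt in GENCODE M21, so its level depends on the shorter model.

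Glrb (chr3:80843599-80913660, minus strand) stood far above the alpha subunits it pairs with, at 47.5 TPM in replicate 2 and 34.8 TPM in replicate 1. Its level was 3.50 times the summed glycine alpha genes in replicate 2 and 2.44 times in replicate 1. The Glrb counts were 1.34-fold higher in replicate 2 (adjusted p = 3.53e-21, exact binomial test), the only gene of the 5 glycine receptor subunits called higher. The exon shown for Glrb above has its cysteine codons at the same positions, bases 20 and 62, as that of Glra2.

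Gephyrin, encoded by Gphn (chr12:78226379-78684772, plus strand), is the scaffold that holds glycine and GABA-A receptors at inhibitory synapses and also takes part in molybdenum cofactor synthesis in all tissues. It was at 50.1 TPM in replicate 2 and 47.2 TPM in replicate 1 and was not called with gene totals. Its 2 transcripts in the tables differ by cassette exons. Gphn-201 was at 28.6 TPM in replicate 2 and 28.0 TPM in replicate 1, and Gphn-202 at 21.5 and 19.1 TPM in replicate 2 and replicate 1. Gphn-201 led in each library, by 1.33 times in replicate 2 and 1.46 times in replicate 1, and its interval met that of Gphn-202 in replicate 2 only. The coding exons that only 1 of the 2 contains are shown because the estimate of each transcript rests on them.
Gphn-201 exon of 57 bases (chr12:78522898-78522954, plus strand): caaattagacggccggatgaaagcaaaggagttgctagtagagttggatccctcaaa
Gphn-201 exon of 42 bases (chr12:78532657-78532698, plus strand): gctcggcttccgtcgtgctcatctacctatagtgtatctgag
Gphn-202 exon of 108 bases (chr12:78493950-78494057, plus strand): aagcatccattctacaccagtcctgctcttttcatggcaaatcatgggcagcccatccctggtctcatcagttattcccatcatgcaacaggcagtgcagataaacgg
The 2 exons of Gphn-201 add 99 coding bases and the exon of Gphn-202 adds 108, so all of these lengths are multiples of the codon length.

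The chloride pumps set the direction of the current. Slc12a5 (chr2:164960802-164999731, plus strand), the neuron-specific extruder, was at 36.7 TPM in replicate 2 and 33.0 TPM in replicate 1. Slc12a2, the loader, which is also abundant in choroid plexus epithelium, was at 6.73 TPM in replicate 2 and 7.50 TPM in replicate 1. The ratio of Slc12a5 to Slc12a2 was 5.45 in replicate 2 and 4.40 in replicate 1, so the extruder's transcripts exceeded the loader's in each hindbrain. The Slc12a5 counts were 1.13-fold higher in replicate 2 (adjusted p = 8.88e-06, exact binomial test). The Slc12a2 counts had a ratio of 0.852 (adjusted p = 0.00313, exact binomial test), and with spike-in totals they were not called (adjusted p = 0.202, exact binomial test). The choroid plexus marker Ttr, transthyretin, was at 1094 TPM in replicate 2 and 1825 TPM in replicate 1, in the same direction as Slc12a2. Of the 7 choroid plexus markers, 5 were called lower in replicate 2, 1 was called higher and 1 was not called. The part of choroid plexus in the Slc12a2 difference was not tested.

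Not all of the Slc12a5 signal was attributed to the full-length coding transcript. Slc12a5-201 was at 21.7 TPM in replicate 2 and 17.5 TPM in replicate 1. Slc12a5-205, a retained-intron model at the end of the gene, was at 14.6 TPM in replicate 2 and 13.4 TPM in replicate 1, or 39.6% and 40.6% of the gene in replicate 2 and replicate 1. Its span (chr2:164996591-164999722) lies inside that of Slc12a5-201 (chr2:164967983-164999731). The split between these transcripts is an estimate, and its dependence on read coverage near the gene's end was not tested. With Slc12a5-201 alone the ratio to the single Slc12a2 transcript was 3.22 in replicate 2 and 2.33 in replicate 1, which still put the extruder higher in both. Slc12a5-202 begins 7167 bases upstream of Slc12a5-201 and was at 0 TPM in replicate 2 and 1.45 TPM in replicate 1. It had 0 counts in replicate 2 and 11.2 counts in replicate 1, and its intervals in the 2 libraries overlapped.

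Both starts have a promoter window in RefSeq (GRCm38.p6). The levels do not separate use of the 2 starts, because Slc12a5-202, a short processed transcript, is the only listed model from the upstream one. The windows are shown with the 10 bases from the annotated start in capitals.
Slc12a5 upstream start (chr2:164960596-164960855, plus strand): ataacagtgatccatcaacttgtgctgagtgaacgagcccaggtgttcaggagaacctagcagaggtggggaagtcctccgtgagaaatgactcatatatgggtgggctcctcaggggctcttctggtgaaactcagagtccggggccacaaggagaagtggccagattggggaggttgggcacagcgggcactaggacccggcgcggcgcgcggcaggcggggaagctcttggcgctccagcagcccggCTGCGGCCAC
Slc12a5 downstream start (chr2:164967738-164967997, plus strand): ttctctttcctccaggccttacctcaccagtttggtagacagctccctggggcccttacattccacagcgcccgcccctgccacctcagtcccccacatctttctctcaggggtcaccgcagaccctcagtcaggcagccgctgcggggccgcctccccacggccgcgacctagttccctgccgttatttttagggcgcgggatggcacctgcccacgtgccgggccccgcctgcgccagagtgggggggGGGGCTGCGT
Of the 32 genes, 29 matched a promoter entry, with 37 windows from 250 bases before to 50 bases after a start. The TATAAA motif, searched on both strands, occurred in 5 of the 37 windows, those of Gabra3, Gabrb2, Gad1 and Glra2, beside 13.6% of all 32851 windows. The EGR motif GCGTGGGCG was in 0 of 37, beside 0.612% of all windows, and TTCAGCACC, one side of the RE1 motif, in 0 of 37, beside 0.371%. These are letter matches in these windows only. The GC content of the upstream Slc12a5 window was 63.7% and that of the downstream window 68.3%, beside a median of 52.7% over all windows.

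Gad1 and Gad2 encode the enzymes GAD67 and GAD65, which make GABA from glutamate. Gad1 (chr2:70553072-70602014, plus strand) was at 94.3 TPM in replicate 2 and 69.4 TPM in replicate 1. Gad2 (chr2:22622205-22693874, plus strand) was at 27.3 TPM in replicate 2 and 26.3 TPM in replicate 1. With all transcripts of each gene included, Gad1 exceeded Gad2 by 3.46 times in replicate 2 and 2.64 times in replicate 1. The Gad1 counts were 1.28-fold higher in replicate 2 (adjusted p = 6.57e-30, exact binomial test), and those of Gad2 were not called, with a ratio of 0.969. The difference between the 2 ratios was not tested.

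The leading Gad1 transcript by estimated level was not the one annotated as making the full enzyme. Gad1-206, annotated as a processed transcript without a coding region, was at 52.0 TPM in replicate 2 and 39.3 TPM in replicate 1, or 55.1% and 56.6% of the gene in replicate 2 and replicate 1. Gad1-201, the full coding transcript, was at 31.8 TPM in replicate 2 and 21.8 TPM in replicate 1. Of the 16 exons of Gad1-206, 14 are identical to exons of Gad1-201. Gad1-206 has a 77-base exon at its start in place of the first 2 exons of Gad1-201, which together measure 434 bases and hold the start codon. The split between the 2 transcripts is an estimate that rests mainly on these opening exons, because the rest is almost fully shared. In Gad2, the coding transcript Gad2-201 held 72.3% of the gene in replicate 2 and 73.8% in replicate 1, and the short processed transcript Gad2-202 the rest. Gad2-201 was at 19.7 TPM in replicate 2 and 19.4 TPM in replicate 1, nearer to Gad1-201 than the whole genes were to each other. The intervals of Gad1-201 and Gad2-201 lay apart in replicate 2 and overlapped in replicate 1.

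Slc6a11 clears GABA, mainly into glia, and was the most abundant of the 4 transporters. It was at 64.0 TPM in replicate 2 and 50.5 TPM in replicate 1 (chr6:114131241-114249952, plus strand), and its counts were 1.20-fold higher in replicate 2 (adjusted p = 2.38e-17, exact binomial test). Slc6a9 (GlyT1), the glial glycine transporter (chr4:117834506-117875198, plus strand), was at 26.7 TPM in replicate 2 and 28.7 TPM in replicate 1. Its count ratio was 0.890 (adjusted p = 0.00985, exact binomial test), its intervals overlapped, and with spike-in totals it was not called (adjusted p = 0.567, exact binomial test). Of the exon bases of Slc6a9, 27.8% overlap Ccdc24 on the opposite strand, and whether the counting used strand is not given in the sources used here, so its level is uncertain. Its leading transcripts, Slc6a9-202 and Slc6a9-201, were at 10.5 and 7.92 TPM in replicate 2 and at 10.9 and 9.12 TPM in replicate 1, with overlapping intervals in both libraries.

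Slc6a5 (GlyT2), which returns glycine to glycinergic terminals and marks those neurons (chr7:49910146-49963856, plus strand), was at 10.9 TPM in replicate 2 and 9.17 TPM in replicate 1. Slc32a1, the vesicular carrier of both GABA and glycine (chr2:158610767-158615748, plus strand), was at 9.26 TPM in replicate 2 and 6.95 TPM in replicate 1. Both were higher in replicate 2, Slc6a5 by 1.13-fold (adjusted p = 0.00635, exact binomial test) and Slc32a1 by 1.26-fold (adjusted p = 0.00251, exact binomial test). The ratio of Slc6a5 to Slc32a1 was 1.18 in replicate 2 and 1.32 in replicate 1, so the glycine-specific gene was near the shared carrier. Of the exon bases of Slc32a1, 24.9% overlap the antisense gene Gm14205, and reads of the pair cannot be told apart without strand.

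Across the 24 genes averaging 1 TPM or more, the leading transcript was the same in both replicates in 24 of 24. For 9 of them the tables hold a single transcript, and of the 15 with several, 15 kept their leader, beside 90.7% of 9845 protein-coding genes with several transcripts. The leader was not annotated as protein coding in 3, Gad1, Gabrg3 and Gabra2, beside 6.19% of 13588 protein-coding genes. Gabrg3-203, a retained-intron model, held 49.7% of its gene in replicate 2 and 46.8% in replicate 1. Gabra2-201, the only Gabra2 transcript in the tables, carries a nonsense-mediated decay annotation in GENCODE M21, where it is 2245 nt long, against 2392 nt in the tables. In 7 genes, Gabbr1, Gad1, Gphn, Slc12a5, Slc6a9, Gad2 and Gabrg3, at least 2 transcripts each held 20% or more in both replicates.

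Most other leaders were clear. Glrb-201 held 87.0% of its gene in replicate 2 and 89.2% in replicate 1, and Gabrb2-201 held 92.2% and 87.9% in replicate 2 and replicate 1. Gabra3-201 held 64.3% in replicate 2 and 60.7% in replicate 1, over Gabra3-202 with 19.7% and 27.9% in replicate 2 and replicate 1. Gabrq-202 held 71.0% in replicate 2 and 87.9% in replicate 1, the widest shift of a leading share among these genes. Glra1-202 held the whole of its gene in both, and the other 2 listed Glra1 transcripts were at 0.

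**Figure D3:**
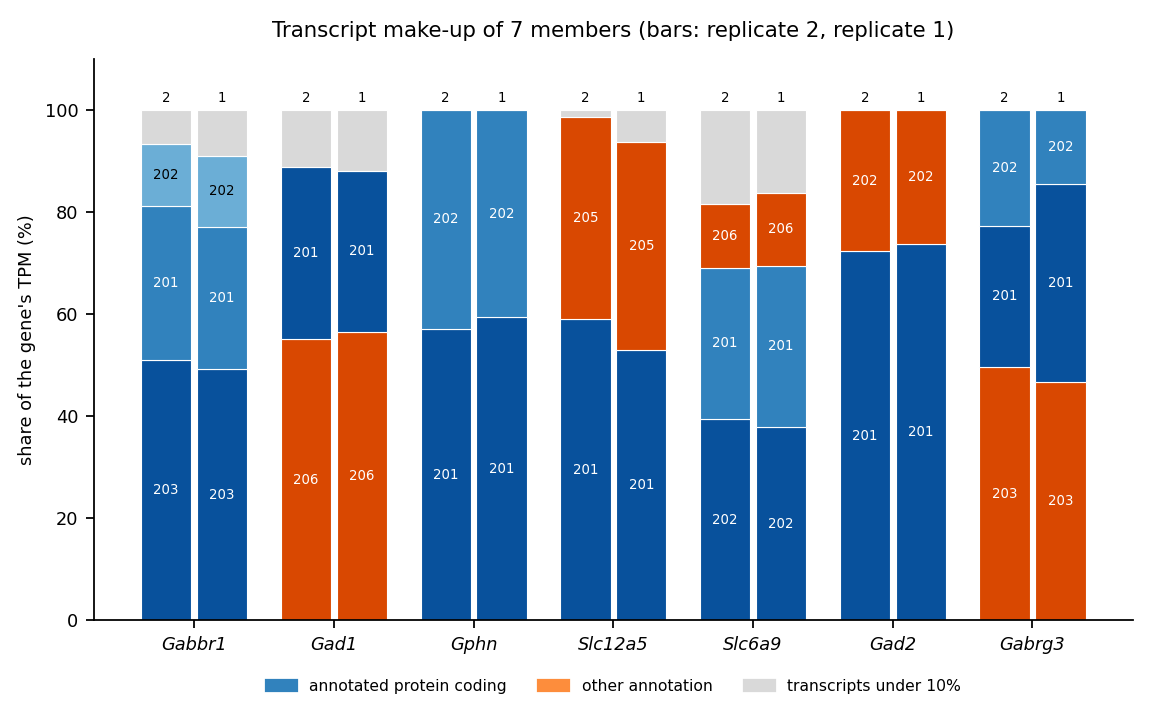
Share of each gene's TPM (%) held by its transcripts in the 7 genes with at least 2 major transcripts, replicate 2 left of replicate 1; blue shades are transcripts annotated as protein coding, orange other annotations and grey transcripts under 10%. The order of the leaders is the same in both bars of every gene, with Gad1-206 at 55.1% and 56.6% in replicate 2 and replicate 1.

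The genes around these receptors and transporters were measured from lists of partner genes. All 18 matched genes of the inhibitory postsynapse were detected. Of these 18, 5 were called higher in replicate 2 and 5 lower, beside 15.7% and 18.7% of all tested genes. The highest were Gabarap, a GABA-A receptor trafficking protein also in autophagy, at 511 TPM in replicate 2 and 497 TPM in replicate 1, its relative Gabarapl2 at 364 and 372 TPM in replicate 2 and replicate 1, and Ubqln1, a ubiquitin-like protein that binds GABA-A subunits, at 119 and 93.7 TPM in replicate 2 and replicate 1. The list's median log2 TPM ratio was 0.06, beside 0.17 for the 24 detected members and 0.05 for all genes averaging 1 TPM or more. These ratios are replicate 2 over replicate 1 with a pseudocount of 1 TPM.

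Of 15 genes of GABA and glycine metabolism and amino acid transport, 14 were detected, 3 were called higher and 4 lower. The glycine cleavage genes Dld, 119 and 103 TPM in replicate 2 and replicate 1, and Gcsh, 84.5 and 85.6 TPM, led the list, followed by Abat, the enzyme that degrades GABA, at 59.9 TPM in replicate 2 and 54.5 TPM in replicate 1. Of 21 chloride-handling genes, 19 were detected, 5 were called higher, 4 lower, 11 were not called and 1 was not tested. Among them were the chloride-proton exchanger Clcn3 at 69.4 and 62.1 TPM in replicate 2 and replicate 1, and Neto2, an auxiliary protein of kainate receptors that also binds Slc12a5, at 68.5 and 58.4 TPM in replicate 2 and replicate 1. The genes of both lists went in both directions between the replicates, beside 15.7% of all tested genes called higher and 18.7% called lower.

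Of 10 partners of the GABA-B receptor, 9 were detected. Of the 10, 3 were called higher and 0 lower, beside 15.7% and 18.7% of all tested genes. Gnao1, the G-protein alpha subunit the receptor signals through, was at 183 TPM in replicate 2 and 155 TPM in replicate 1, Rgs7 at 45.9 and 39.1 TPM, and the auxiliary subunit Kctd12 at 25.4 and 20.1 TPM in replicate 2 and replicate 1. Kcnj5, a potassium channel subunit opened by such receptors, was below the limit at 0.490 TPM in replicate 2 and 0.230 TPM in replicate 1, and its counts were 1.98-fold higher in replicate 2 (adjusted p = 0.0280, exact binomial test). The other 7 partners were not called.

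Of 21 transcription factors of inhibitory lineages, 11 were detected. Of the 21, 4 were called higher, 4 lower, 9 were not called and 4 had too few counts to be tested. Over all tested genes 15.7% were called higher and 18.7% lower. Tfap2b was at 33.9 TPM in replicate 2 and 39.9 TPM in replicate 1, Lhx1 at 37.8 and 34.5 TPM, and Pax8 at 19.6 and 26.2 TPM in replicate 2 and replicate 1. The Dlx genes and Gsx2, factors of forebrain interneurons, were below 1 TPM. The largest difference of any tested partner was in Tal2, a factor of midbrain GABAergic neurons, with 111 counts (1.98 TPM) in replicate 2 and 7 counts (0.110 TPM) in replicate 1 (16.5-fold, adjusted p = 2.13e-24, exact binomial test). Skor2, a corepressor of Purkinje cells, had 107 counts in replicate 2 and 53 counts in replicate 1 (2.10-fold, adjusted p = 6.61e-05, exact binomial test). Slc17a6, a vesicular glutamate carrier, was at 101.9 TPM in replicate 2 and 81.1 TPM in replicate 1, with counts 1.19-fold higher in replicate 2 (adjusted p = 1.39e-26, exact binomial test), and the other 2 of the 3 vesicular glutamate carriers were not called.

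**Figure D4:**
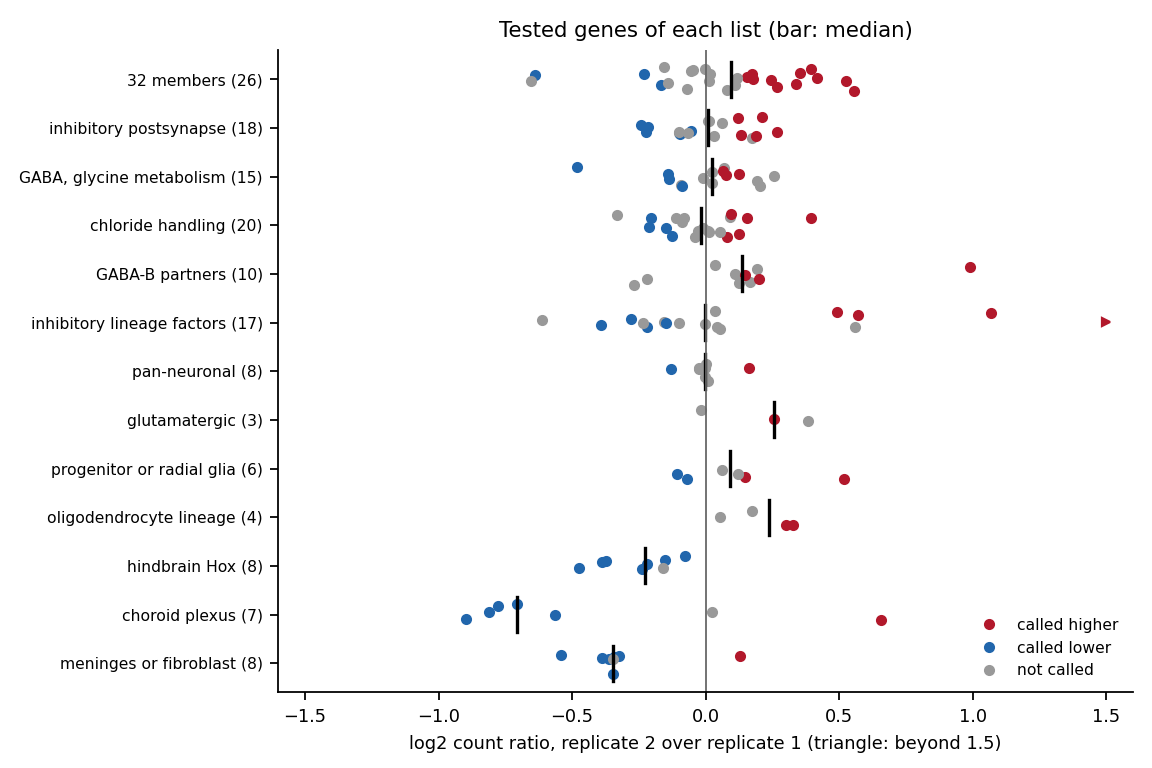
Log2 count ratio, replicate 2 over replicate 1, scaled by gene totals, of the tested genes (numbers in brackets) among the 32 members, 5 partner lists and 7 marker lists; red and blue points were called higher and lower, and bars are medians. The members' median is 0.10 and the choroid plexus markers lie mostly to the left; spike-in scaling moves all points right by 0.12.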

How the data were processed

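Total RNA-seq of 2 hindbrain libraries was used. Per the labels' protocols each started from 10 ng of RNA, sized above 200 nt, with spike-ins. Per the accompanying descriptions, the authors assigned reads to mm10 with annotation M4. The sources used here give no aligner, quantifier or strand setting. The authors deposited expected counts (not normalised), TPM and posterior mean TPM (over all 69691 features, 96 spike-ins included), FPKM, credibility bounds (used as score values; level not stated) and effective lengths. Per the file headers, the authors also gave each transcript's part of its gene in percent. The bounds surround the posterior mean, so a deposited TPM can lie outside them.

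Names, coordinates, transcripts and exons came from GENCODE M21 (GRCm38, the mm10 assembly), matched without version for 42462 genes; models can differ from M4. Promoters came from RefSeq. Log2 ratios of TPM used a pseudocount of 1. The exact two-sided binomial test used expected counts rounded to whole numbers, a minimum mean of 10, Benjamini-Hochberg adjustment and a threshold of 0.05, and was tested on simulated data; with 1 group of 2 there is no residual spread for a count model. Alternatives were FPKM, posterior means, rescaled TPM, other limits, pseudocounts and filters, spike-in totals, DESeq2 1.42.0 size factors, edgeR 4.0.16 TMM factors and each replicate alone. Software was Python 3.11.15 (scipy 1.17.1, numpy 2.4.6, matplotlib 3.10.9, pandas 2.3.3) and R 4.3.3. The list members Lhfpl3 and Insyn2a had no match. Named were all 32 members, the 3 most abundant genes of each partner list and every partner called at least 1.5-fold different (1 of the genes this rule takes is not reported here); Slc17a6, Ttr, Six3, Lhx2, Lhx6, Hbb-y, Hba-x, the Dlx genes and Gsx2 were named after their values were seen. Members and lists were chosen with earlier results of these data known. PCR copies were not marked by molecular identifiers, so p-values and floors cover counting error only.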

Additional observations from a re-analysis of the deposited data

How the results depend on the processing

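The count of detected genes was 24, and 23 with FPKM, 24 with posterior means or rescaled TPM, 25 and 21 with limits of 0.5 and 5 TPM, and 24 in each replicate alone. The 14 calls became 14 with TMM, DESeq2 size factors or no filter, 13 with a mean count of at least 100, 16 with spike-in totals, 10 with separate credibility intervals and 1 with a 1.5-fold minimum, where the stricter rule itself lowers the count. With spike-in totals the log2 count ratios of Slc12a2 (-0.11), Slc6a9 (-0.04) and Glra1 (-0.51) were no longer called, and those of Gabra4 (0.24), Gabrb1 (0.24), Gabbr2 (0.20) and Gphn (0.14) were. Ratios near 0 changed sign without a call for Gabra2 (0.0691), Gad2 (0.0792) and Gabre (0.0549) with spike-in totals, and for Gabbr1, which was 0.0209 with TMM, 0.0235 with DESeq2 size factors and, called, 0.12 with spike-in totals. The spike-in scaling adds 0.12 to every ratio, TMM 0.0238 and the DESeq2 size factors 0.0265. The median log2 ratio of the members, 0.07, ranged from 0.01 (FPKM) to 0.17 (detected genes only). No paired analysis was possible because both samples belong to 1 group. With 2 replicates an SD rests on 1 difference, and members with a mean count under 10 had too few reads for a comparison.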
